A study of Mus musculus with 10 samples.

Results

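The caudal-type homeobox factors Cdx1, Cdx2 and Cdx4 and 7 genes of the intestinal epithelium (Fabp1, Fabp2, Vil1, Cdh17, Lgals4, Tff3 and Muc2) were followed across all arrays of the series. A gene was represented by a probe whose annotation gave that symbol and no other, and where several probes qualified, by the one with the highest mean log2 value over the 10 arrays. All 10 genes of 18067 named on the array had such a probe, 14 probes in all.

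RNA was hybridised to 1-colour CodeLink mouse whole-genome arrays, 2 arrays for each of 5 groups. Embryoid bodies (EBs) were grown from 1 mouse ES cell line, an Ainv18 derivative whose Hprt locus carries a bicistronic Pdx1-IRES-Ngn3 cassette under a doxycycline (Dox) promoter. They were steered towards endoderm with activin A, BMP4 and bFGF and harvested on day 13. Dox(+) EBs received 1 µg/ml Dox from day 4, and Dox(−) EBs carried the same cassette and received none. The reference samples were βTC6, a mouse insulinoma line, islets labelled as whole tissue, with no age in the labels and different ages in the study's text and in a heading of its supplement, and whole pancreas of mouse embryos at E15.5. Another entry of the EB labels names activated Notch4 in place of the cassette. The labels number the arrays of a group as biological replicates without giving separate cultures or dissections, and p-values then reflect the spread between these arrays alone, which may be technical. EB arrays came from one range of slide numbers, βTC6 and islet arrays from another and pancreas arrays from a further one, so slide range and tissue cannot be told apart except within the EBs and between βTC6 and islets.

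Cdx factors are transcription factors that pattern the posterior embryo, where they act on Hox genes. Cdx2 then holds endoderm to an intestinal fate, and it is also a factor of the trophectoderm. Enterocytes absorb nutrients through a brush border of microvilli, and goblet cells secrete the mucus that covers them. In the embryo the intestine and the pancreas arise from neighbouring endoderm, and Pdx1 marks the stretch that gives pancreas and duodenum.

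The promoter sequence of 7 of the 10 genes could be read from RefSeq windows (build GRCm38.p6), which run from 250 bases before to 50 after the start of each gene. Both strands were searched for the letters TTTATG and TTTATA, core words of caudal factors, and TGTTTAC, a core word of forkhead factors. The 250 bases before the start are printed for Cdx2, whose fall with Dox was the widest of the Cdx factors. They are also printed for Fabp1 and Fabp2, which both fell, and for Muc2, whose chosen probe did not pass the test. Matches are in capitals, on whichever strand, and each run is 5′ to 3′ on the strand of its gene. Cdx2 lies at chr5:147307250-147307499 on the minus strand, Fabp1 at chr6:71199629-71199878, Fabp2 at chr3:122894822-122895071 and Muc2 at chr7:141690090-141690339, these on the plus strand.
Cdx2: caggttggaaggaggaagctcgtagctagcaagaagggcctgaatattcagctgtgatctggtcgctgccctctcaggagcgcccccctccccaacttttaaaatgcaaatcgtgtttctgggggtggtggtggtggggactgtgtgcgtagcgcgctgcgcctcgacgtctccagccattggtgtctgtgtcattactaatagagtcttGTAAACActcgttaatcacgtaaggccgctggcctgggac
Fabp1: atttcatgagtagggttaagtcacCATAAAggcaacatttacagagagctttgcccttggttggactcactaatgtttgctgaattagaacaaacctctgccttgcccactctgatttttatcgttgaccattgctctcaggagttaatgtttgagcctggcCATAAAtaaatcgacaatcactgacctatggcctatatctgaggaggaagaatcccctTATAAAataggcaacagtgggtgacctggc
Fabp2: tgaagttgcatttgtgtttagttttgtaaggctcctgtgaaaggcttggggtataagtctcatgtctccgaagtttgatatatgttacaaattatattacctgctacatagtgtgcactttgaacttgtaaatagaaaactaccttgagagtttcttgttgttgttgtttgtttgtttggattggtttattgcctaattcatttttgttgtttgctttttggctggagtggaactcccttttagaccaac
Muc2: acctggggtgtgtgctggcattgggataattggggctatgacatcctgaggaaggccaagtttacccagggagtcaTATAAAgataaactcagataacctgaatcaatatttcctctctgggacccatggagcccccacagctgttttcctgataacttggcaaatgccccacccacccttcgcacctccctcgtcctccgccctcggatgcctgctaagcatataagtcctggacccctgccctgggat
The Fabp1 window held 3 matches, to TTTATG from 226 and from 88 bases before the start and to TTTATA from 30 bases before it, where the printed letters TATAAA also spell a TATA box. Muc2 held TTTATA from 174 bases before its start, and Cdx2 held TGTTTAC from 40 bases before. The windows of Fabp2, Vil1, Lgals4 and Cdx4 held none of these words. Among 32851 windows of the same length, 11.9% held TTTATG, 13.6% held TTTATA and 3.65% held TGTTTAC.

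With Dox, 8 of the 10 transcripts were lower, among them Cdx2 and 6 epithelial genes by 3.83-fold or more, and 0 were higher. Of all 28109 probes tested, 22.5% were lower in Dox(+) than in Dox(−) EBs and 20.7% were higher (limma, Benjamini-Hochberg adjusted p under 0.05). The median log2 difference was -2.30 over the 10 genes and -0.034 over all probes. Levels are scaled intensities, in which the median probe of each array is 1 and values below a floor of 0.27 are set to it. They are compared between samples for 1 probe and not between probes, and where the levels of a list are summed, bright probes weigh most. In these bulk samples, fewer cells of a type and less RNA per cell cannot be told apart.

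**Figure D1:**
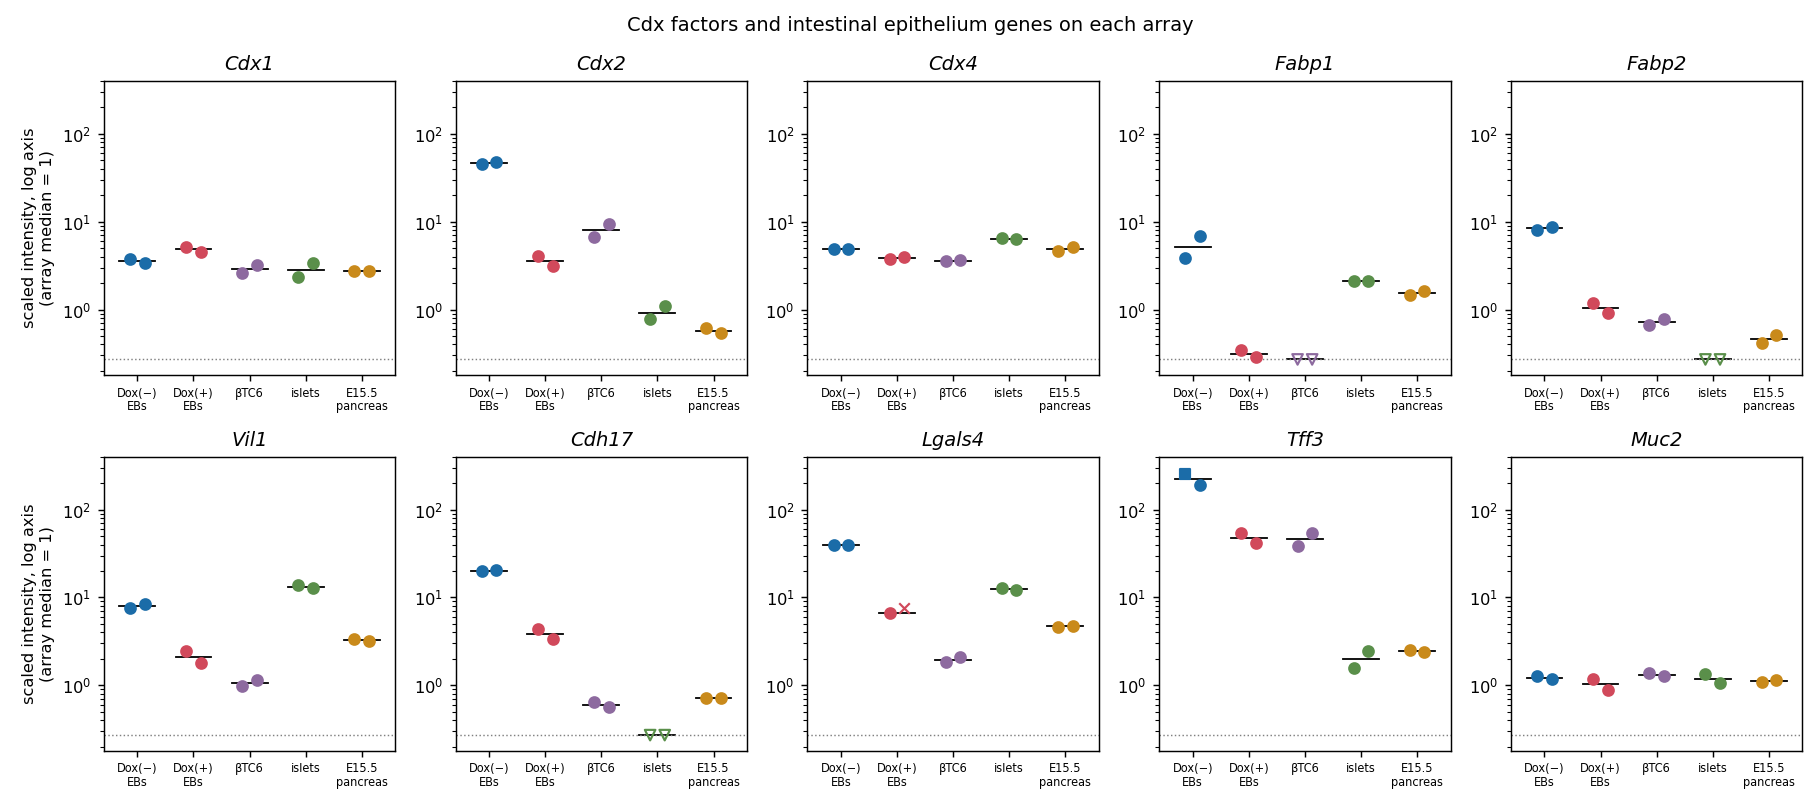
Scaled intensity of each gene (log axis, array median 1) on each array of the 5 groups, with the group's geometric mean as a bar. Open triangles are spots at background, squares saturated spots, the cross a contaminated spot left out of the fit, and the dotted line the floor of 0.27. Cdx2, Fabp1, Fabp2, Cdh17, Lgals4 and Tff3 have their highest levels in Dox(−) EBs and Vil1 and Cdx4 in islets. Muc2 lies between 0.893 and 1.38 on every array.

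Cdx2 showed the widest fall of the 3 Cdx factors. Its level was 45.6 and 48.2 in Dox(−) EBs against 4.05 and 3.13 in Dox(+) EBs, a log2 difference of -3.72 ± 0.21 (standard error, SE, with adjusted p = 1.84e-07 by limma). The groups did not overlap, and Dox(+) EBs held 7.60% of the Dox(−) level. Only 0.157% of the tested probes had a lower log2 difference.

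Cdx4, a factor of the early posterior embryo encoded on the X chromosome, was at 4.93 and 4.91 without Dox and at 3.77 and 3.98 with it. This was 1.27-fold lower (log2 difference -0.35 ± 0.10 SE, adjusted p = 0.0138 by limma). The call was lost without Dox(−) replicate 1 (adjusted p = 0.0582), Dox(−) replicate 2 (0.0553) or Dox(+) replicate 1 (0.0725).

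Cdx1, a factor of the embryonic tail and of intestinal crypts, had a difference of the other sign that did not pass the test. Its levels were 3.75 and 3.40 on the Dox(−) arrays and 5.16 and 4.58 on the Dox(+) ones (log2 difference 0.45, 95% interval 0.07 to 0.82, adjusted p = 0.0552 by limma). The groups did not overlap, which for 2 arrays against 2 is common even without a difference, here and in the other genes. The same difference passed when 1 βTC6 array (adjusted p = 0.0377 and 0.0379 for replicates 1 and 2) or 1 islet array (0.0248 and 0.0252) was left out of the shared estimate of spread.

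Both fatty acid binding proteins fell. Fabp1, the form of hepatocytes, proximal enterocytes and yolk sac endoderm, was at 3.90 and 6.88 on the Dox(−) arrays against 0.342 and 0.291 on the Dox(+) arrays. This was 16.4-fold lower (log2 difference -4.04 ± 0.22 SE, adjusted p = 1.81e-07 by limma), with the Dox(+) arrays just above the floor. The log2 difference was -2.37 with a floor of 1 and -2.87 with normexp background correction. Fabp2, the form of enterocytes, fell from 8.08 and 8.80 to 1.17 and 0.904 (log2 difference -3.03 ± 0.17 SE, adjusted p = 1.83e-07).

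Genes of the brush border and of epithelial contacts fell too. Vil1 encodes villin, which bundles actin in microvilli, and went from 7.58 and 8.45 to 2.43 and 1.80, 3.83-fold lower (log2 difference -1.94 ± 0.15 SE, adjusted p = 2.22e-06 by limma). Cdh17, the cadherin of intestinal epithelium, went from 19.8 and 20.4 to 4.42 and 3.39, 5.19-fold lower (log2 difference -2.38 ± 0.14 SE, adjusted p = 3.40e-07). In both genes each Dox(+) array lay below each Dox(−) array.

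Lgals4 encodes galectin 4, a lectin of the gut epithelium. Its probe read 39.2 and 39.1 in Dox(−) EBs and 6.67 in Dox(+) replicate 1, while the spot of Dox(+) replicate 2 was marked as contaminated and was left out (its reading was 7.51). On the remaining arrays it was 5.87-fold lower with Dox (log2 difference -2.55 ± 0.12 SE, adjusted p = 1.40e-07 by limma). Its probes carry accessions of a near-identical copy that some mouse strains have, so the reading cannot be assigned to Lgals4 alone.

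Of the goblet cell products, 1 fell and 1 did not pass the test. Tff3, a trefoil peptide secreted with mucus, was at 256 and 193 without Dox and at 54.1 and 41.9 with it, 4.67-fold lower (log2 difference -2.22 ± 0.23 SE, adjusted p = 2.31e-05 by limma). The first of these spots was saturated, so its reading and the fold are lower limits, and without that array the log2 difference was -2.02. Muc2, the gel-forming mucin of goblet cells, was at 1.28 and 1.17 without Dox and at 1.16 and 0.893 with it, with a log2 difference of -0.26 (95% interval -0.63 to 0.11, adjusted p = 0.238). This interval includes a difference of the size measured for Cdx4. The Muc2 outcome depended on the probe, as another Muc2 probe was 1.57-fold lower with Dox (adjusted p = 0.0266 by limma).

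**Figure D2:**
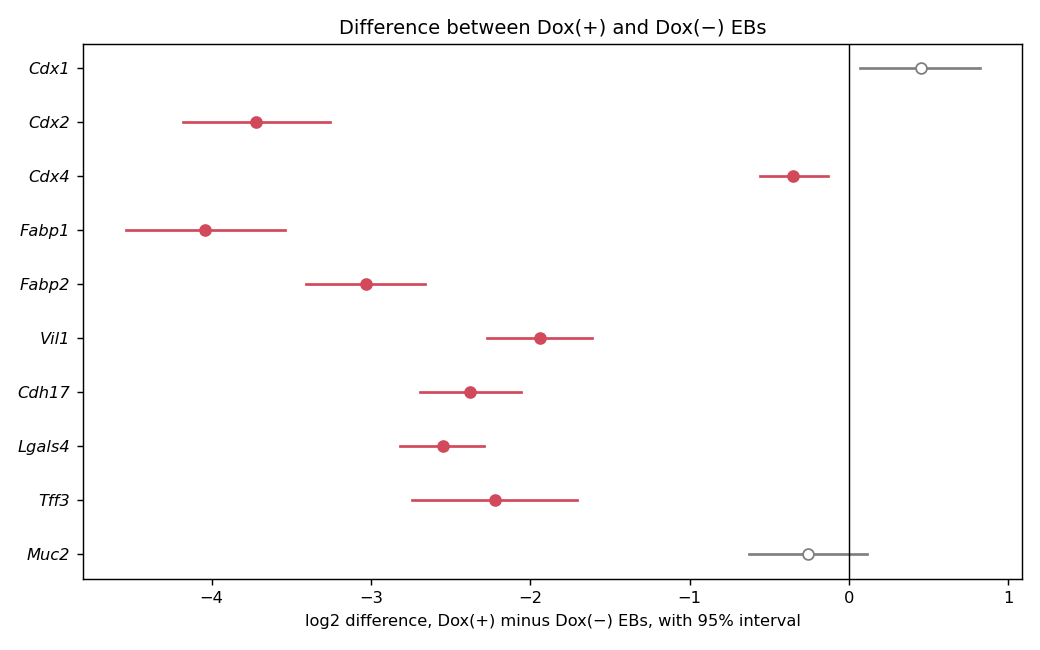
Log2 difference of each gene between Dox(+) and Dox(−) EBs (points) with its 95% interval from limma (lines). Red filled points passed the adjusted p of 0.05 and open points did not. Cdx2, Fabp1 and Fabp2 lie at -3.03 or below, Cdx1 at 0.45.

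Genes that mark epithelia of any kind moved with these transcripts. Their counts stand beside 22.5% of all probes lower with Dox and 20.7% higher. Of 19 general epithelium genes tested, 18 were lower with Dox, 0 were higher and 1, Lgals3 (log2 difference -0.35, adjusted p = 0.0579), did not pass, and the median log2 difference was -1.92, within a range from -3.13 to -0.35. The smallest adjusted p in this list belonged to Ezr, which encodes the membrane and actin linker ezrin and was 4.63-fold lower, to the tight junction gene Cldn3 (4.37-fold lower) and to the serine protease gene Prss8 (8.77-fold lower). The summed level of the 18 genes measured on all arrays was 859.6 to 925.3 in Dox(−) EBs and 331.7 to 395.4 in Dox(+) EBs, and without the brightest, Spint2, 691.2 to 714.7 and 214.7 to 259. None of the 19 was at background in an EB array. Cdx2 and Fabp1 had lower log2 differences than all 19 of them, Fabp2 and Lgals4 than all but 1 and Cdh17 than all but 2. Of the 19, 3 lay below Tff3, 9 below Vil1, 18 below Cdx4 and all 19 below Cdx1 and Muc2. The rank of Fabp1 rests on Dox(+) levels just above the floor, and its difference was -2.37 with a floor of 1. The part of a change in epithelial content in the falls was not tested.

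Other genes of enterocytes did not move in 1 direction. Of 23 enterocyte genes tested, 8 were lower and 4 higher, beside 22.5% and 20.7% of all probes, and 11 did not pass. The median log2 difference of the 23 was -0.18. The lower ones included Tmprss2, a serine protease gene (5.45-fold), and Apoa1 and Apob, which encode lipoprotein proteins that enterocytes share with hepatocytes and yolk sac (9.60-fold and 6.70-fold). The higher ones were Cdhr2 (5.46-fold) and Cdhr5 (at least 3.19-fold), a pair of cadherins that link the tips of microvilli, the lipoprotein gene Apoc3 (at least 4.51-fold) and the brush border motor gene Myo7b (1.48-fold).

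Cdhr2 was at 3.84 and 3.92 on the Dox(−) arrays against 23.3 and 19.3 on the Dox(+) arrays, so this brush border gene rose where Vil1 fell. Cdhr5 was at 0.393 and 0.294 without Dox, both at background, and at 1.15 and 1.03 with it. Of 27 enterocyte genes with a named probe, 10 were at background on each Dox(−) array and 8 on each Dox(+) array. Slc15a1, Slc5a1, Rbp2, Mep1a, Mep1b and Tm4sf5 were at background on every EB array.

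Among 19 secretory and crypt genes tested, 7 were lower and 2 higher, beside 22.5% and 20.7% of all probes. Another 10 did not pass, and the median log2 difference of the 19 was -0.10. Lyz1, the lysozyme of Paneth cells, was 7.51-fold lower, Creb3l1, a factor of secretory cells, 4.23-fold lower and the transmembrane mucin gene Muc13 9.92-fold lower. Spink4, a protease inhibitor gene of goblet cells, was 5.10-fold higher, and Lgr5, which marks intestinal stem cells, 2.01-fold higher. The goblet cell genes Agr2 and Clca1 were at background in every EB array. Spdef, of the same list, was above background in every EB array, at 5.29 and 4.47 without Dox and at 1.41 and 1.29 with it (3.60-fold lower).

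The other endoderm factors were counted with Cdx2 left out. Of 20 gut transcription factors and signals tested, 9 were lower and 1 higher, beside 22.5% and 20.7% of all probes. Another 10 did not pass, and the median log2 difference of the 20 was -0.33. Klf5 was 6.08-fold, Prdm1 7.50-fold and Nr5a2 5.84-fold lower. Foxa2, a forkhead factor of endoderm, was the 1 that rose, from 3.02 and 3.21 to 11.1 and 10.1 (3.40-fold, adjusted p = 5.12e-07 by limma).

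Cdx genes also act in the tail of the embryo and in trophoblast. The counts that follow stand beside 22.5% of all probes lower with Dox and 20.7% higher. Of 12 posterior axis genes, 3 were higher (Sp5 at least 7.92-fold, Rspo3 2.75-fold and Dll1 at least 3.81-fold), 1 lower (Cyp26a1, at least 2.20-fold) and 8 did not pass. Of 20 Hox genes of paralogue groups 5 to 13, 10 were lower, 3 higher and 7 did not pass, with Hoxc8 17.9-fold lower, Hoxc9 at least 9.21-fold lower and Hoxa10 (at least 3.15-fold), Hoxa11 (at least 1.88-fold) and Hoxd10 (1.33-fold) higher. Of 11 trophoblast genes, 6 were lower, among them Plet1 (5.54-fold) and Hand1 (1.98-fold), 1 was higher (Gata3, 4.29-fold) and 4 did not pass (Ascl2, Eomes, Cts8 and Elf5). Elf5, a defining factor of trophoblast stem cells, was at background in every EB array.

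Of 18 visceral endoderm and yolk sac genes, 13 were lower and 4 higher (Cited1, Sox17, Apom and Ttr), beside 22.5% and 20.7% of all probes. The remaining 1, Sox7, did not pass, and the median log2 difference of the 18 was -0.80. Dab2, an endocytic adaptor gene, was 9.12-fold lower, the endocytic receptor gene Cubn at least 7.13-fold lower, and Afp, which encodes α-fetoprotein, at least 12.5-fold lower, with both Dox(−) spots saturated. The summed level of the 17 genes measured on all arrays was 403.4 to 432 in Dox(−) EBs and 106.9 to 123 in Dox(+) EBs. Afp made up most of the Dox(−) sum, and the other 16 genes summed to 138.9 to 161.5 in Dox(−) EBs and 88.3 to 98.7 in Dox(+) EBs. The part of yolk sac endoderm in the fall of Fabp1 was not tested.

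**Figure D3:**
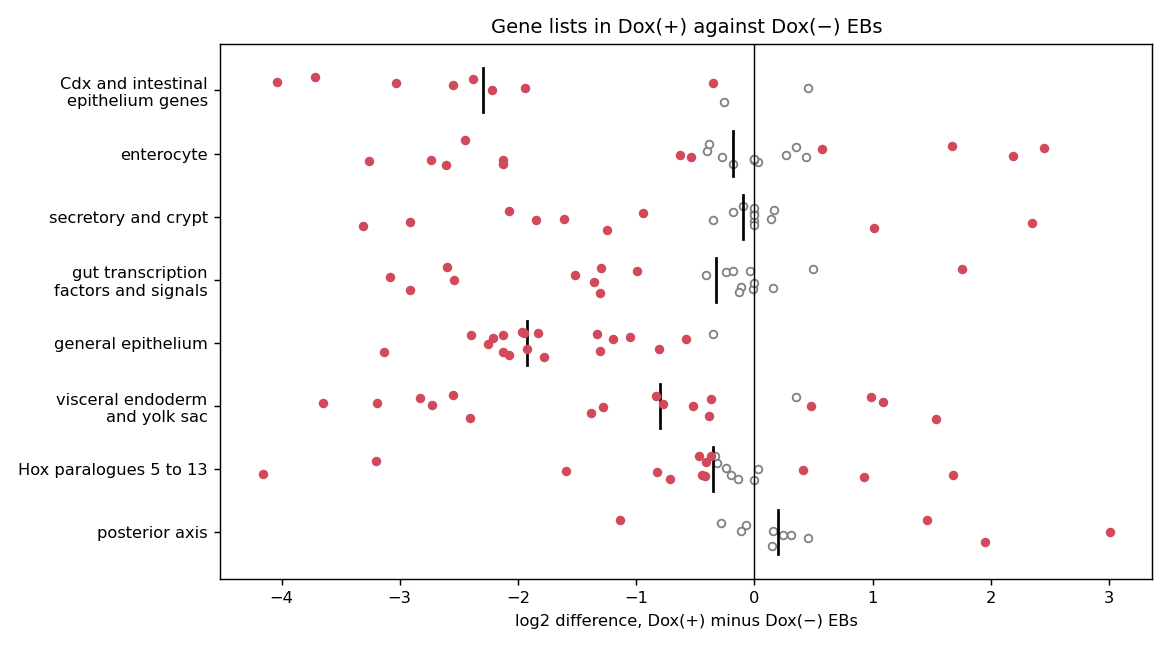
Log2 difference between Dox(+) and Dox(−) EBs for each tested gene of 8 lists, 1 point a gene, with the list's median as a bar. Red filled points passed the adjusted p of 0.05 and open points did not. The medians are -2.30 for the Cdx and intestinal epithelium genes, -1.92 for general epithelium and between -0.80 and 0.20 for the other 6 lists.

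Against the reference samples, Dox(−) EBs had the higher level of most of these genes. Compared with βTC6, 8 of 10 genes were higher in Dox(−) EBs and 0 lower, beside 28.7% of all probes higher and 37.9% lower. Compared with islets, 6 were higher and 2, Cdx4 and Vil1, lower, beside 37.7% and 32.3% of all probes. Compared with E15.5 pancreas, 7 were higher and 0 lower, beside 33.6% and 24.8%. Cdx1 and Muc2 passed in none of these 3 comparisons.

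Dox(+) EBs had genes on both sides of each reference. With βTC6, 5 genes were higher in Dox(+) EBs and 1, Cdx2, lower, beside 25.5% and 37.4% of all probes. With islets, 5 were higher and 4 lower (Cdx4, Fabp1, Vil1 and Lgals4), beside 36.4% and 31.6%. With E15.5 pancreas, 6 were higher and 3 lower (Cdx4, Fabp1 and Vil1), beside 33.1% and 26.9%. Both EB groups are set against the same reference arrays, and the Dox(−) arrays also serve in the Dox comparison, so the comparisons are not independent.

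Cdx2 differed between all neighbours in the order of its levels. βTC6 came next to Dox(−) EBs, at 6.66 and 9.52, 5.89-fold below Dox(−) EBs (adjusted p = 1.06e-06 by limma) and 2.23-fold above Dox(+) EBs (adjusted p = 5.53e-04). Islets, at 0.772 and 1.09, were 3.88-fold below Dox(+) EBs (adjusted p = 9.90e-06). E15.5 pancreas, at 0.617 and 0.536, was lowest, 1.60-fold below islets (adjusted p = 0.0144). Its distance from Dox(−) EBs was 81.5-fold.

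Fabp2 and Cdh17 were highest in the EBs and lowest in islets. Fabp2 was at 0.675 and 0.781 in βTC6, at 0.417 and 0.507 in E15.5 pancreas and at background on both islet arrays, and all neighbours in its order differed (adjusted p at most 0.0226 by limma). Dox(−) EBs were 11.6-fold above βTC6, 18.3-fold above pancreas and at least 31.2-fold above islets. Cdh17 was at 0.723 and 0.721 in pancreas and at 0.643 and 0.565 in βTC6, which did not differ by the test (95% interval of the log2 difference -0.06 to 0.58, adjusted p = 0.134), and at background on both islet arrays. Dox(+) EBs remained 5.36-fold above pancreas in Cdh17 and at least 14.3-fold above islets.

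Vil1 and Lgals4 were shared with the pancreatic tissues. Vil1 was highest in islets, at 13.7 and 12.7, 1.65-fold above Dox(−) EBs (adjusted p = 1.27e-03 by limma), followed by Dox(−) EBs, pancreas at 3.36 and 3.17, Dox(+) EBs and βTC6 at 0.986 and 1.16, and all neighbours in this order differed. Lgals4 was at 12.8 and 12.2 in islets, 4.57 and 4.78 in pancreas and 1.83 and 2.07 in βTC6. Dox(−) EBs were 3.13-fold above islets and Dox(+) EBs 1.88-fold below them (adjusted p = 7.88e-05, on 1 Dox(+) array).

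Of 14 beta cell genes listed, 10 had a named probe, and neither insulin gene was among the 10. The summed level of the 10 was 635.8 to 704.6 in islets, 335 to 362.8 in βTC6 and 63.6 to 66.5 in E15.5 pancreas. It was 16.43 to 18.04 in Dox(−) EBs and 22.36 to 24.57 in Dox(+) EBs. These sums leave out insulin RNA, for which the study's supplement gives a joint entry that was higher with Dox. Islet arrays also carried RNA of exocrine genes. The summed level of 14 acinar genes measured on all arrays was 2562 to 2991 in islets, 1247 to 1314 in E15.5 pancreas, 9.46 to 9.78 in βTC6 and 10.2 to 36.5 in the EBs, and 0 of 16 named acinar genes was at background in islets. The summed level of 12 duct genes was 224 to 227.6 in E15.5 pancreas, 152.8 to 168.7 in islets and 80.9 to 99.8 in βTC6. It was 198.6 to 198.8 in Dox(−) EBs and 66.2 to 70.5 in Dox(+) EBs. Without the brightest, Krt7, it was 167.1 to 169.6 in pancreas, 61.7 to 66.9 in islets and 35.25 to 38.9 in βTC6. Vil1 was 12.4-fold and Lgals4 6.43-fold lower in βTC6 than in islets, within 1 slide range, and the part of exocrine cells in these differences was not tested.

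Fabp1 was lower in Dox(+) EBs than in both pancreatic tissues. Islets, at 2.09 and 2.12, and pancreas, at 1.47 and 1.62, did not differ by the test (95% interval of the log2 difference, pancreas minus islets, -0.95 to 0.05, adjusted p = 0.103 by limma). Dox(−) EBs were 2.46-fold above islets, and Dox(+) EBs were 6.67-fold below islets and 4.89-fold below pancreas (adjusted p = 1.32e-06 and 8.03e-06). In βTC6 both spots were at background, at least 16.5-fold below Dox(−) EBs.

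Tff3 was highest in Dox(−) EBs and was lowest in pancreas and islets. βTC6, at 38.7 and 54.2, and Dox(+) EBs overlapped and did not differ by the test (95% interval of the log2 difference -0.46 to 0.57, adjusted p = 0.878 by limma). E15.5 pancreas was at 2.51 and 2.37 and islets at 1.57 and 2.48, and they too overlapped (adjusted p = 0.272). With the saturated Dox(−) spot at its reading, Dox(−) EBs were at least 91.1-fold above pancreas and at least 113-fold above islets.

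**Figure D4:**
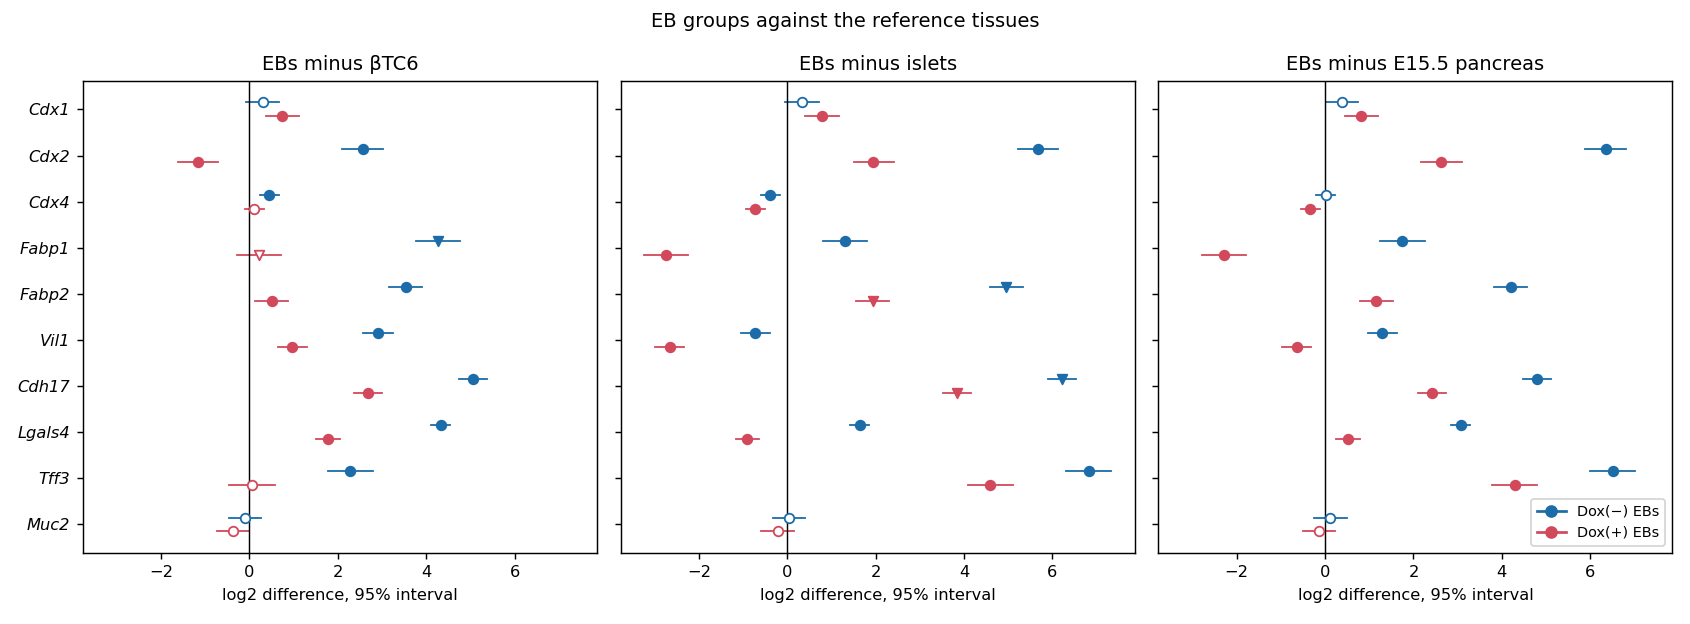
Log2 difference of Dox(−) EBs (blue) and Dox(+) EBs (red) from βTC6, islets and E15.5 pancreas for each gene, with 95% intervals from limma. Filled points passed the adjusted p of 0.05, open points did not, and triangles mark a reference group at background, where the fitted value depends on the floor. Cdx2 lies above 0 against islets and pancreas in both EB groups and below 0 against βTC6 in Dox(+) EBs.

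Among the reference samples themselves, βTC6 was higher than islets in 4 genes (Cdx2, Fabp2, Cdh17 and Tff3) and lower in 4 (Cdx4, Fabp1, Vil1 and Lgals4), beside 39.1% and 27% of all probes. Cdx2 was 8.66-fold and Tff3 23.2-fold higher in the insulinoma line than in islets (adjusted p = 2.46e-07 and 3.37e-08 by limma). Pancreas was higher than islets in Fabp2 and Cdh17 and lower in Cdx2, Cdx4, Vil1 and Lgals4, beside 32.5% of all probes in each direction. Pancreas was higher than βTC6 in 4 genes (Cdx4, Fabp1, Vil1 and Lgals4) and lower in 3 (Cdx2, Fabp2 and Tff3), beside 23.7% and 41.8%.

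Cdx1, Cdx4 and Muc2 varied little between the groups. Cdx4 was highest in islets, at 6.49 and 6.29, 1.30-fold above Dox(−) EBs (adjusted p = 4.68e-03 by limma), and lowest in βTC6, at 3.59 and 3.62. Cdx1 was at 2.61 and 3.23 in βTC6, 2.37 and 3.38 in islets and 2.75 and 2.73 in pancreas, and Dox(+) EBs were 1.67-fold, 1.72-fold and 1.77-fold above these (adjusted p at most 0.00276). No neighbours in the order of Cdx1 differed by the test. With its chosen probe, Muc2 passed in none of the 10 comparisons.

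Further probes were named for 3 of the genes. The other Cdx1 probe was at background in both EB groups and in pancreas and at 0.474 to 0.667 in βTC6 and islets, so the EBs were among its lowest groups and the highest of the described probe. The other Lgals4 probe was 6.44-fold lower with Dox (adjusted p = 3.11e-06 by limma), at 7.95 and 8.56 against 1.29 and 1.27, all measured. Unlike the described probe, it did not pass between Dox(+) EBs and pancreas (adjusted p = 0.952). One other Muc2 probe was 1.57-fold lower with Dox, at 1.04 and 1.06 against 0.623 and 0.715 (adjusted p = 0.0266), and the third was at background on 9 of 10 arrays and was not tested.

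**Figure D5:**
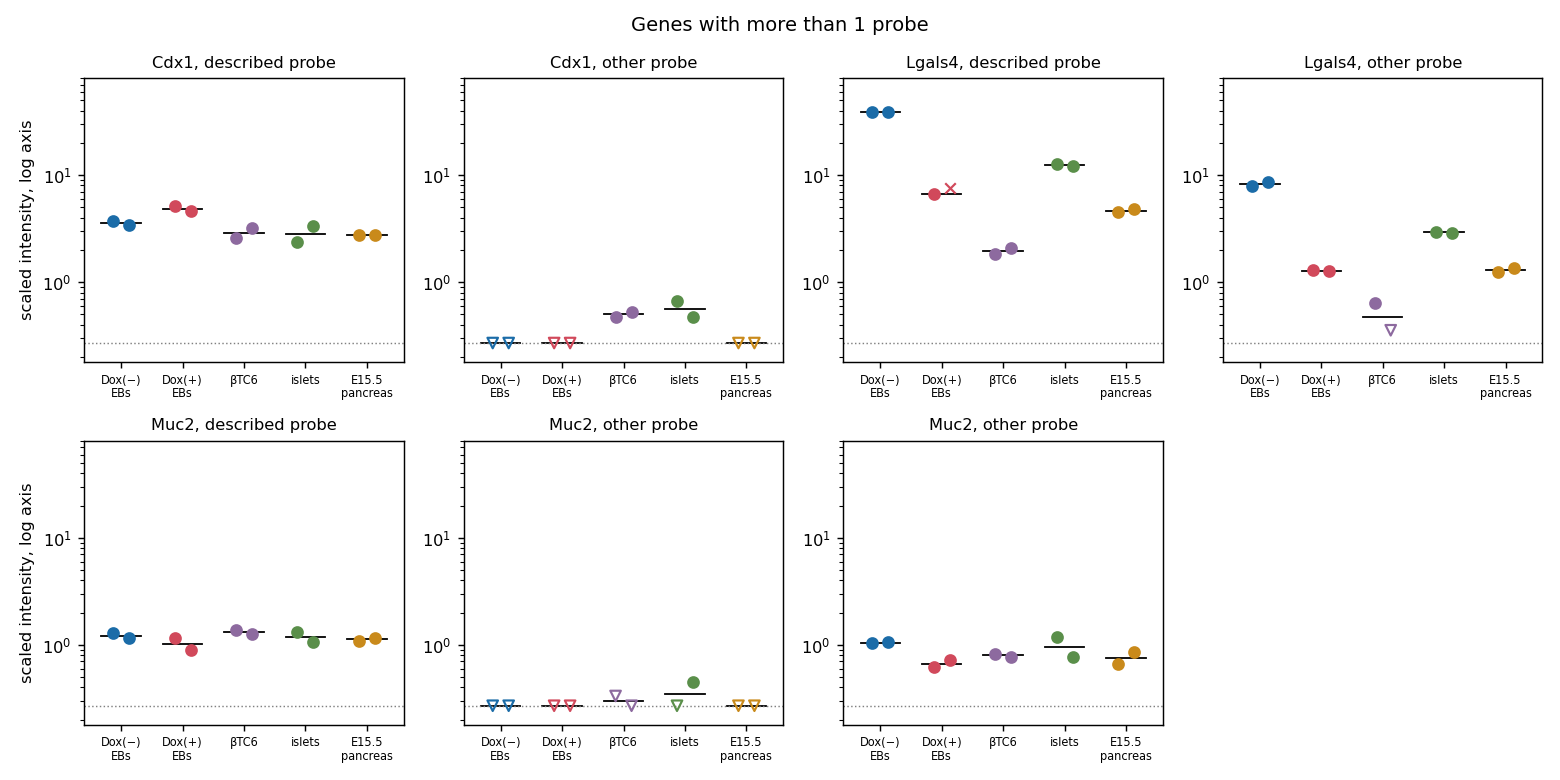
Scaled intensity (log axis, array median 1) of every named probe of Cdx1, Lgals4 and Muc2 on each array, with geometric means as bars. Open triangles are spots at background and the cross is the contaminated spot. The Lgals4 probes are both highest in Dox(−) EBs, and the Cdx1 probes differ in whether the EBs are among the highest or the lowest groups.

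The genes whose log2 level followed a member most closely over the 10 arrays were taken by Pearson's r among 14882 genes, as a description in which the points share groups and slides. For Cdx2 these were Elovl6 (r = 0.978), Mrgpra3 (0.976) and 4930417O13Rik (0.975). For Fabp2 they were Upk1a (0.990), Plekhd1 (0.988) and Hspb7 (0.988), and for Vil1 Ripk4 (0.985), Bcl2 (0.979) and Mustn1 (0.975). Upk1a, a uroplakin gene, was at 24.1 and 24.5 on the Dox(−) arrays against 4.39 and 3.94 on the Dox(+) arrays. Elovl6, a fatty acid elongase gene, was at 48.2 and 44.6 without Dox and at 22.6 and 21.5 with it, a narrower range than that of Cdx2.

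The induced transcripts could not be checked with these probes. Pdx1 was at background in all EB arrays, Neurog3 was at 0.458 and 0.520 without Dox and at 0.447 and 0.557 with it (adjusted p = 0.962 by limma), and Notch4 did not pass either (adjusted p = 0.398). The Pdx1 probe was also low in the reference samples, at 0.776 and 0.598 in βTC6, 0.524 and 0.482 in islets and 0.281 and 0.331 in pancreas. A probe outside the part of a transcript that the cassette carries would not see it, which was not tested. The study reports Dox-induced Pdx1 by RT-PCR in a line that carried Pdx1 alone. It also stained both proteins after Dox as positive controls, in EBs of the Pdx1 and Ngn3 line. Both checks were made under other protocols than that of these arrays. Over the arrays, 66.0% to 74.3% of 34967 probes were above background and 60 to 114 spots were saturated, and the number of arrays limits the precision.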

How the data were processed

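Arrays were scanned and quantified by the authors with CodeLink Expression Analysis 4.1.0.29054, per the file headers, and GeneSpring is named in the methods. The deposited intensity is the spot mean less the local background, scaled so that the median discovery probe of each array is 1. Deposited flags marked spots at background, saturated, contaminated or irregular. From the 36227 spots, 1260 control spots were left out, and contaminated and irregular spots were set to missing.

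Probes were named through the platform annotation and updated by gene ID: 21615 had 1 symbol, 681 several and 12671 none. Values were floored at 0.27 and taken to log2. The 28109 probes that both arrays of some group showed above background were fitted with 1 mean per group over all 10 arrays with limma 3.58.1 (R 4.3.3, lmFit, eBayes with trend and robust weights), and two-sided p-values were adjusted by Benjamini-Hochberg within each of 10 comparisons. The fit was tested on simulated data. A fold against a group at background or saturated on both arrays is given as a bound, from the brighter group's mean and the lowest level above background. Figures and counts used Python 3.11.15.

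The genes, the lists and the tests were chosen with earlier results of these data known. Beside the 10 genes, the 3 genes per list whose Dox comparison had the smallest adjusted p, and those needed for a count of 5 or fewer, are named. Further named genes at background, and Spdef, were chosen after their values were seen. Lists for other tissues are counted in the closing section. Alternatives were other floors, filters, normalizations, samples, probes and variance models, and leaving out each array. The removal of probes that the methods describe was not repeated.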

Additional observations from a re-analysis of the deposited data

How the results depend on the processing

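The Dox difference of each of the 10 genes kept its sign under the 12 alternatives and the 10 fits without 1 array, where they gave a value, and of the other comparisons only the counts of genes called were recomputed. With only probes above background on all arrays, 6 of the 10 genes could be tested, and by construction fewer were called: 5 between Dox(+) and Dox(−) EBs, 4 between Dox(−) EBs and each of βTC6, islets and E15.5 pancreas, 3 between Dox(+) EBs and βTC6, 5 between Dox(+) EBs and islets and likewise pancreas, 4 between βTC6 and islets and between pancreas and βTC6, and 3 between pancreas and islets. A minimum change of 2-fold left 3 between Dox(+) EBs and βTC6, 5 between Dox(+) EBs and pancreas and 3 between pancreas and islets, and a floor of 1 left 3 in the last comparison. Without 1 array, the genes called numbered 6 to 9 for Dox, 8 to 8 (Dox(−) EBs and βTC6), 8 to 9 (Dox(−) EBs and islets), 7 to 8 (Dox(−) EBs and pancreas), 5 to 6 (Dox(+) EBs and βTC6), 8 to 9 (Dox(+) EBs and islets), 7 to 9 (Dox(+) EBs and pancreas), 8 to 8 (βTC6 and islets), 6 to 7 (pancreas and βTC6) and 5 to 7 (pancreas and islets). Fits without Dox(+) replicate 1 could not give Lgals4. Where a lone array remained in a group it was assumed to vary like the others. The Cdx1 difference passed with a floor of 0.1 (adjusted p = 0.0488 by limma) and with only probes above background on all arrays (0.0302). It passed under no other of the 12 alternatives. The cause of these shifts was not tested.

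Replicate numbers are shared between groups, but the deviations of same-numbered arrays correlated between -0.0688 and 0.0626 over 10 pairs of groups, so the numbers were not taken as pairs. With the replicate number as a block, 8 of the 10 genes were called for Dox as in the fit without it, and no count of called genes moved in any comparison. Values near the floor are limited by signal over background, whose median ratio was 1.66 to 2.63 over the arrays.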

Other observations

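Lists for neighbouring tissues gave the following counts between Dox(+) and Dox(−) EBs, by limma with an adjusted p under 0.05 (20.7% of all probes were higher and 22.5% lower). Of 16 stomach genes, 3 were higher (Barx1, Nkx3-2 and Sox2), 3 lower and 10 did not pass. Tff1, a trefoil gene of the gastric surface, was 8.45-fold lower, at 11.7 and 10.8 against 1.27 and 1.39, the gastric and hindlimb factor Pitx1 7.50-fold lower, and Gkn2 at least 5.22-fold lower. Tff1 thus fell with Dox, as Tff3 did.

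Of 12 duct genes, 1 was higher (Slc4a4), 7 lower and 4 did not pass (Pkhd1, Cftr, Muc1 and Sox9). The keratin gene Krt19 was 8.26-fold lower, at 81.9 and 80.5 against 9.31 and 10.4, Cldn4 4.38-fold and Anxa4 2.55-fold lower. Of 17 muscle and mesenchyme genes, 2 were higher (Hand2 and Pdgfrb), 13 lower and 2 did not pass (Pdgfra and Myh11), and the matrix genes Col1a1, Lum and Dcn were 16.5-fold, 13.5-fold and 6.44-fold lower, so falls of the size of the epithelial genes also occurred in mesenchymal genes.

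Genes listed for enteroendocrine cells stood on the other side, and the list does not separate gut from islet endocrine cells. The summed level of its 16 genes measured on all arrays was 1069 to 1107 in Dox(+) EBs and 25.39 to 31.33 in Dox(−) EBs. It was 1064 to 1105 in islets, 1216 to 1239 in βTC6 and 259.9 to 273 in E15.5 pancreas. Of 19 enteroendocrine genes, 16 were higher, led by Sst (at least 406-fold), Cck and Chga (54.7-fold), 0 were lower and 3 did not pass, Tph1, Neurog3 and Insl5 (median log2 difference 5.24). Cck, which encodes cholecystokinin, was at 0.726 and 0.749 on the Dox(−) arrays against 193.7 and 159.6 on the Dox(+) arrays. Cdx2, Fabp1 and Fabp2 were lower with Dox, but the 23 enterocyte genes tested went both ways, with 8 lower, 4 higher and a median log2 difference of -0.18. Of 16 acinar genes, 8 were higher, among them Cpa1, Cela1 and Clps, 1 lower (Pnliprp2) and 7 did not pass. Of 10 beta cell genes, 6 were higher, among them Pcsk1, Nkx6-1 and G6pc2, 1 lower (Abcc8) and 3 did not pass (Slc2a2, Mafa and Glp1r). Neither insulin gene was among these 10.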
